A study of Mus musculus with 3 samples.

Results

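The response of OP9-DL1 stromal cells to phospho-ascorbate (pAsc) for 24 h was set against the response of T lineage cells to pAsc for 72 h, gene by gene. The genes compared were those measured on both arrays, meaning that the probe lay well above background in both the untreated and the treated channel of each array and was not a control. These were 20744 of 41174 probes, or 13943 of 27729 genes when each gene was taken by its brightest probe. The genes were then sorted into those that moved alike, oppositely, or on 1 array only.

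pAsc is a stable form of vitamin C. OP9-DL1 is a mouse bone marrow stromal line, labelled as osteoblast of strain B6-C3Hf1 in continuous culture, that carries the Notch ligand Dll1 and supports T cell development. The T lineage cells came from bone marrow progenitors of C57BL/6 mice, grown on OP9-DL1 with the cytokines Flt3L and IL7, which treated and untreated cultures shared. Both kinds of culture were kept in MEM, and pAsc was given at 800 µM. It was present for 24 h on the stromal cells, for the last 72 h of a 17-day T cell culture, and, on a further array quoted beside these, for the last 24 h of a 14-day T cell culture. Before RNA extraction the T cells were parted from the stroma by letting the latter adhere briefly.

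On each array Cy3 marked the untreated and Cy5 the treated RNA, and each comparison rests on 1 array with no dye swap. No p-value can be given, and a dye effect of a single probe cannot be told apart from treatment. A gene was called where its ratio reached 2-fold, a log2 ratio of 1 or more in size. The SD of the log2 ratio between repeat spots of a probe was 0.068 on the stromal array and 0.066 on the T cell 72 h array. Between different probes of a gene it was 0.178 and 0.175, over 4995 genes with several probes. The stromal and T cell samples differ in cell type, in time and in culture, and these cannot be told apart.

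Ascorbate keeps the iron of a family of dioxygenases in its active state. These enzymes hydroxylate collagen in the endoplasmic reticulum, mark the hypoxia-inducible factor (HIF) for destruction, and remove methyl groups from DNA and histones. Stromal cells lay down collagen and other matrix proteins and supply Notch ligand and cytokines, and developing T cells on them rearrange their receptor genes. Interferon-stimulated genes form an antiviral programme that most cell types can switch on, usually through factors that include Stat2 and Irf9.

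The cell types were checked against marker genes. All 12 stromal markers, among them Col1a1, Pdgfrb and Cxcl12, were measured on the stromal array, and of 12 T lineage markers 10, including Cd3d, Cd8a and Ptprc, were above background in neither channel there. For the label osteoblast, 4 of the 5 genes Runx2, Sp7, Alpl, Bglap and Ibsp, a set chosen after values were seen, were measured on the stromal array and Ibsp was above background in neither channel. At 72 h all 12 T lineage markers were measured in T cells, but so were 11 of the 12 stromal markers, whose untreated level had a median of 53.5% of that in stromal cells and ranged from 30.6% to 180%. Their summed level in the T cell 72 h sample was 228342 untreated and 381161 treated, on the linear scale of the scaled channel signals, against 357085 and 476154 on the stromal array. These values stand beside every matrix or stromal gene given for T cells below, and every gene higher in untreated stromal cells. The part of stromal RNA in those results was not tested. In such bulk samples fewer cells of a type and less RNA per cell cannot be told apart.

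Few genes moved on both arrays. On the stromal array 60 of 13943 genes (0.43%) were higher by 2-fold or more in treated cells and 17 (0.122%) were lower. On the T cell 72 h array 28 (0.201%) were higher and 22 (0.158%) lower. Of the 118 genes past 2-fold on either array (0.846%), 7 were higher on both (0.0502% of all genes), 1 was lower on both (0.00717%) and 1 moved in opposite directions (0.00717%). Another 31 passed 2-fold on 1 array and lay 0.5 to 1 log2 units the same way on the other, and 4 did so the opposite way. That left 45 genes past 2-fold on the stromal array only and 29 on the T cell array only, where "only" means that the other array lay within 0.5 of 0.

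**Figure D1:**
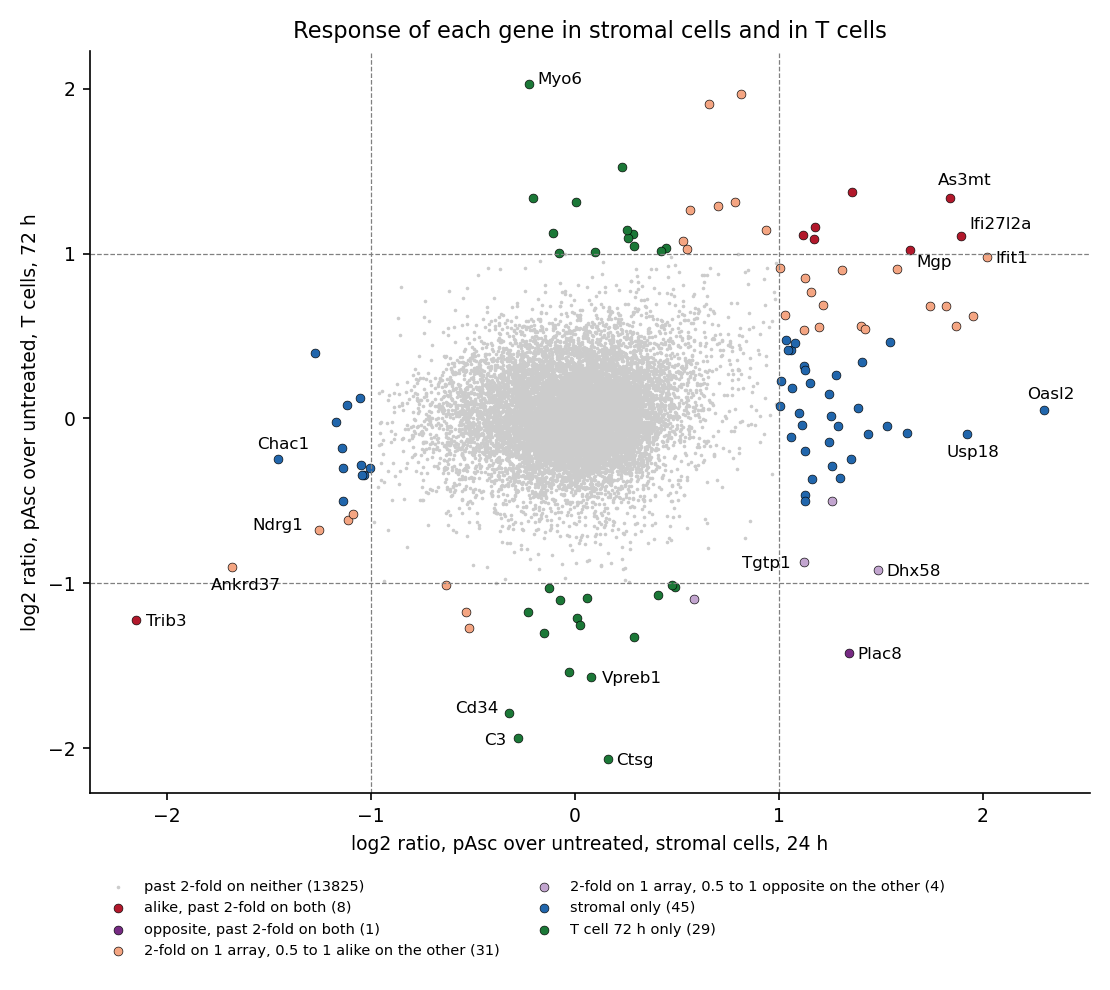
Each point is 1 of the 13943 genes, with its log2 ratio of pAsc over untreated in stromal cells at 24 h on the x axis and in T cells at 72 h on the y axis; dashed lines mark 2-fold. Most genes past 2-fold lie along 1 axis, with 45 on the stromal array only and 29 on the T cell array only, while 8 lie in the corners where both moved alike and Plac8 alone lies in the corner of opposite movement.

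The largest stromal response was an interferon-stimulated programme that had little counterpart in T cells. All 46 measured genes of the interferon-stimulated list (of 56 listed) had a stromal log2 ratio above 0. Their stromal median was 0.80, with 19 past 2-fold upward and 0 downward. On the T cell 72 h array the same 46 genes had a median of 0.01, with 1 at least 2-fold higher, 0 lower, 25 above 0 and 21 below. The medians over all 13943 genes were 0.02 on both arrays. Of these genes 7423 lay above 0 and 6520 below in stromal cells, and 7380 and 6563 in T cells at 72 h. At 24 h in T cells the list had a median of 0.05, with 0 past 2-fold, where 50 of 13595 genes (0.368%) were higher by 2-fold and 0 (0.0%) lower. A list chosen with earlier results known is a description of these samples and not independent evidence of a direction.

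The stretches upstream of 4 interferon-responsive genes show a sequence that interferon-regulated factors are known to bind. They were chosen to hold 2 genes past 2-fold in stromal cells and above 0.5 in T cells (Ifit1 and Oas1a), 1 past 2-fold in stromal cells only (Isg15) and 1, outside the list, with ratios on opposite sides of 0 (Tgtp1). Each is the 250 bases before the RefSeq start on GRCm38.p6, printed on the gene's own strand from 5′ to 3′. Capitals mark matches on either strand to the core of the interferon-stimulated response element, GAAA followed by any 2 bases and GAAA again, and overlapping matches run together. Their positions are chr19:34640639-34640888 (plus strand) for Ifit1, chr5:120907526-120907775 (minus) for Oas1a, chr4:156200819-156201068 (minus) for Isg15 and chr11:48992247-48992496 (minus) for Tgtp1.
Ifit1: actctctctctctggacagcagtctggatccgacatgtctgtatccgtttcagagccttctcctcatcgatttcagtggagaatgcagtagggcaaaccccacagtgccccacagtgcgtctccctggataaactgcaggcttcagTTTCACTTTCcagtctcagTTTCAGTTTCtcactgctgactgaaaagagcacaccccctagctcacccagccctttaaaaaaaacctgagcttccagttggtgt
Oas1a: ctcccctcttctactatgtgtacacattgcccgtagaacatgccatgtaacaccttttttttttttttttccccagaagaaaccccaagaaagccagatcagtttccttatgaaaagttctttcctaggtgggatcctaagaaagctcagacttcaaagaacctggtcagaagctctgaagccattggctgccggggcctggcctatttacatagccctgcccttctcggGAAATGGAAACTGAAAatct
Isg15: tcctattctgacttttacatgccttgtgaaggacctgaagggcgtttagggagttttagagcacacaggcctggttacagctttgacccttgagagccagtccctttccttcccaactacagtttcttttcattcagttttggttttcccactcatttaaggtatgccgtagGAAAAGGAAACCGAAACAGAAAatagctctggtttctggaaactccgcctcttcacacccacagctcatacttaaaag
Tgtp1: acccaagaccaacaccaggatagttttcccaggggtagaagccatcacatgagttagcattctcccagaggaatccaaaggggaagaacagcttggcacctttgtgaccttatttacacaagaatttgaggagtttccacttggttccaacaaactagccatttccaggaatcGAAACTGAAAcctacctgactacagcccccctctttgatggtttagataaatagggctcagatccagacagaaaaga

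The windows hold 2, 2, 3 and 1 matches in that order. In windows of 250 bases before to 50 bases after a start, the motif was found in 16 of the 34 interferon-stimulated genes with a window (47.1%) and in 360 of all 9713 measured genes with one (3.71%). Among genes at least 2-fold higher on the stromal array it was found in 12 of 39 (30.8%), and among those at least 2-fold higher at 72 h in T cells in 2 of 20. Each gene shown above holds a match, so these genes cannot show whether the motif differs between the patterns. Of the 39 genes, it was found in 8 of 24 sorted with Isg15 and in 3 of 8 sorted with Ifit1 and Oas1a. It was found in 1 of 3 sorted with Tgtp1 and in 0 of 4 at least 2-fold higher on both arrays. A match is a description of these letters and does not show a bound site.

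Oasl2, which encodes an oligoadenylate synthetase-like antiviral protein, was the highest gene of the stromal array. Its log2 level went from 8.45 untreated to 10.75 treated in stromal cells, a ratio of 2.30, and from 8.90 to 8.95 in T cells at 72 h, a ratio of 0.05. Levels are log2 channel signals after scaling across arrays, and 1 gene's level is not compared with another's. Both untreated samples thus held a similar level, and only the treated stromal sample was high. Usp18, which removes the ubiquitin-like Isg15 from proteins, went from 8.92 to 10.84 in stromal cells with a ratio of 1.92, and had a ratio of -0.09 in T cells from an untreated level of 8.10. Zbp1, a sensor of unusual nucleic acids, went from 9.19 to 10.82 and from 10.55 to 10.46. The treated T cell sample was the lower of its pair for both genes, by less than the SD between probes of a gene.

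The transcription factors of the pathway varied in size of response. Irf7 had a stromal ratio of 1.53 and a T cell ratio of -0.05, and Irf9 had 1.11 and -0.04, its stromal value being 0.85 as the median over its probes. Stat2 had 0.80 and -0.21 and did not pass 2-fold on either array. Among effectors, the tetherin gene Bst2 had 1.35 and -0.25, the immunity-related GTPase Irgm2 had 1.44 and -0.10, Rtp4 had 1.29 and -0.05, and Xaf1 had 1.39 and 0.06. Isg15 itself went from 11.57 to 12.98 in stromal cells and from 9.38 to 9.72 in T cells, ratios of 1.41 and 0.34. In all, 13 of the 19 interferon-stimulated genes called on the stromal array lay within 0.5 of 0 at 72 h in T cells, 5 lay above and 1 lay below.

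**Figure D2:**
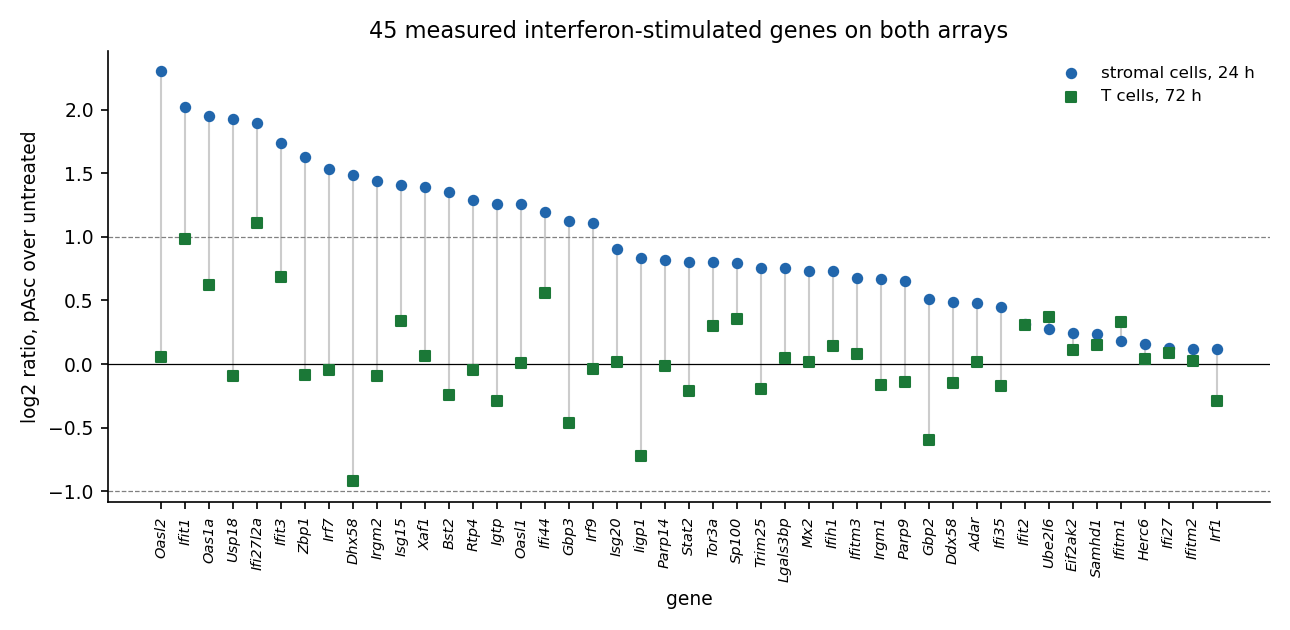
Log2 ratio of pAsc over untreated for 45 of the 46 measured interferon-stimulated genes, in stromal cells at 24 h (circles) and in T cells at 72 h (squares), ordered by the stromal value; dashed lines mark 2-fold and each point is 1 array. Every circle lies above 0, from 0.12 for Irf1 to 2.30 for Oasl2, and most squares lie near 0, with Ifi27l2a highest at 1.11 and Dhx58 lowest at -0.92.

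The 5 of these that also lay above 0.5 at 72 h in T cells were Ifi27l2a, Ifit1, Ifit3, Oas1a and Ifi44. Ifit1, which binds foreign RNA, went from 9.26 to 11.28 in stromal cells and from 7.52 to 8.50 in T cells at 72 h, ratios of 2.02 and 0.98, the second just short of 2-fold. Ifit3, its partner, had ratios of 1.74 and 0.68, Oas1a had 1.95 and 0.62, and Ifi44 had 1.20 and 0.55. At 24 h in T cells these 5 had ratios between 0.12 (Ifit3) and 0.27 (Ifi44). Except for Ifi44, their untreated level was at least 2-fold higher in stromal cells than in T cells. The part of stromal RNA in their T cell values was not tested. Sorting by untreated level uses a channel that is also part of each ratio. Sorted so, the 7 members of the list with such a level had medians of 1.74 (stromal) and 0.62 (T cell 72 h), the 28 with similar levels 0.70 and 0.01, and the 11 at least 2-fold higher in T cells 0.82 and -0.09.

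Class I antigen presentation, a known target of interferon, was split between the arrays in direction of its median. The 15 measured of 16 genes had a median of 0.36 in stromal cells, where 13 lay above 0, and of -0.20 in T cells at 72 h, where 13 lay below 0. The T cell median turned to 0.18 when the arrays were centred without loess. Only H2-K1, which encodes a class I heavy chain, passed 2-fold, and not by the median over its probes (0.87), with levels from 10.57 to 11.70 in stromal cells and from 15.63 to 15.43 in T cells. Its untreated level was 33.3-fold higher in T cells, and its 4 probes gave 0.58 to 1.13 on the stromal array and -0.35 to -0.20 on the T cell array. The immunoproteasome subunits Psmb8 and Psmb9 had 0.73 and 0.65 in stromal cells against -0.18 and -0.64 in T cells.

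The 7 genes at least 2-fold higher on both arrays were Ifi27l2a, As3mt, Mgp, S100a4, Cthrc1, Fetub and Col1a2. Mgp is the matrix Gla protein that restrains calcification, Cthrc1 a secreted collagen triple helix repeat protein, Fetub the protease inhibitor fetuin B, and Col1a2 a chain of type I collagen. 3 of the 7 had an untreated level at least 2-fold higher in stromal cells than in T cells, and the other 4 were within 2-fold.

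Ifi27l2a, an interferon-induced gene, went from 10.69 to 12.58 in stromal cells and from 7.78 to 8.89 in T cells at 72 h, ratios of 1.89 and 1.11. Its probe lies at chr12:104680394-104680453 on mm9, and its other measured probe gave 1.68 and 0.77. As3mt, a methyltransferase that acts on arsenic, went from 8.18 to 10.02 and from 7.06 to 8.39, ratios of 1.84 and 1.34. For both genes the treated sample was the higher on each array, and the T cell ratio at 24 h was smaller, at 0.17 for Ifi27l2a and 0.47 for As3mt.

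Mgp went from 14.92 to 16.57 in stromal cells and from 14.28 to 15.30 in T cells, ratios of 1.65 and 1.02. Cthrc1 went from 7.90 to 9.08 and from 7.37 to 8.53, ratios of 1.18 and 1.16. Fetub went from 8.35 to 9.52 and from 6.85 to 7.94, ratios of 1.17 and 1.09. Mgp is the member just inside 2-fold on its lower array, where Ifit1 at 0.98 is just outside. At 24 h in T cells Mgp was already past 2-fold at 1.11, Cthrc1 had -0.04 and Fetub 0.47. Centring without loess took Cthrc1 to 0.96 in stromal cells and Fetub to 0.80 in T cells.

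S100a4, a calcium-binding protein abundant in fibroblasts, went from 16.23 to 17.59 in stromal cells and from 16.29 to 17.66 in T cells, ratios of 1.36 and 1.37. Col1a2 went from 15.61 to 16.72 and from 15.50 to 16.61, ratios of 1.12 and 1.11. The probes of Mgp, S100a4 and Col1a2 were among the brightest, and bright genes sat above 0 on both arrays. Over the 81 genes with a mean log2 brightness above 16 on both arrays the median ratio was 0.54 in stromal cells and 0.32 in T cells. The other probe of Col1a2 gave -0.31 and 0.17, and subtracting a running median over brightness took Col1a2 and Mgp below 2-fold. With the deposited Agilent log ratio Col1a2, Mgp and S100a4 all fell short of 2-fold on both arrays or on 1.

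**Figure D3:**
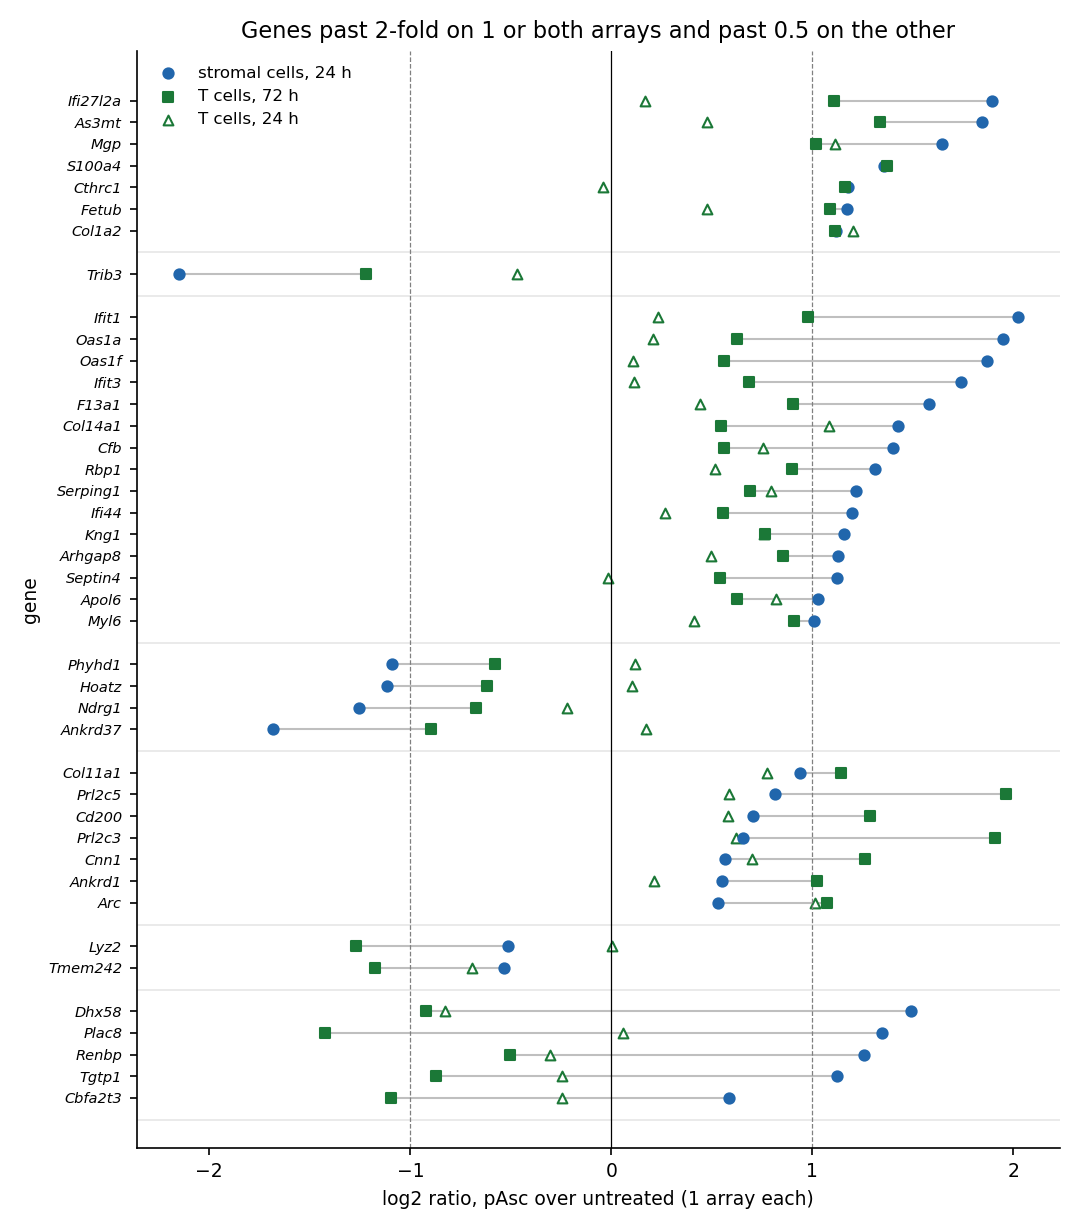
Log2 ratio of pAsc over untreated in stromal cells at 24 h (circles), T cells at 72 h (squares) and T cells at 24 h (triangles) for named genes past 2-fold on 1 or both of the first 2 arrays and past 0.5 on the other; dashed lines mark 2-fold and each point is 1 array. Cthrc1, S100a4 and Col1a2 had nearly equal stromal and T cell 72 h ratios, the interferon-stimulated genes were higher in stromal cells, and the lowest block holds the genes whose 2 ratios lie on opposite sides of 0.

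Trib3, a pseudokinase switched on by amino acid and reticulum stress through the factor Atf4, was the one gene at least 2-fold lower on both arrays. It went from 11.09 to 8.94 in stromal cells and from 9.21 to 7.99 in T cells at 72 h, ratios of -2.15 and -1.22, with -0.47 in T cells at 24 h. Its probe lies at chr2:152163355-152163414 on mm9, and its other probe was just short of 2-fold lower in stromal cells and gave -0.53 in T cells. Of 33 measured genes of the Atf4 stress list, 28 lay below 0 in stromal cells and 24 in T cells, with medians of -0.19 and -0.09, and 2 and 1 were at least 2-fold lower. Centring without loess took both medians to about 0, at -0.0023 and -0.003. Chac1, which breaks down glutathione, was lower in stromal cells only, from 11.16 to 9.71, against 8.51 to 8.26 in T cells at 72 h. Asns, asparagine synthetase, had -0.95 and -0.27, Atf5 had -0.88 and -0.35, and Phgdh, of serine synthesis, had -0.26 and -0.77.

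Targets of HIF and glycolytic genes did not move as 1 block. The list of 40 measured genes had a median of -0.13 in stromal cells, with 28 below 0 and 2 at least 2-fold lower, and of 0.19 in T cells at 72 h, with 25 above 0 and 2 at least 2-fold higher. Over all 13943 genes 6520 lay below 0 in stromal cells and 7380 above 0 in T cells at 72 h. Centring without loess turned the stromal median of the list to 0.03. The genes lower in stromal cells and below -0.5 in T cells were Ankrd37, an ankyrin-repeat HIF target that went from 9.23 to 7.55 and from 9.39 to 8.49, and Ndrg1, which went from 11.28 to 10.03 and from 13.37 to 12.70. Their ratios were -1.68 and -0.90, and -1.25 and -0.68. The glycolytic enzymes Aldoa and Ldha were higher in T cells only, with -0.11 and 0.26 in stromal cells against 1.12 and 1.14. With the deposited Agilent log ratio their T cell values were 0.81 and 0.86, and with a running median over brightness subtracted 0.93 and 0.98, so neither passed 2-fold. Ldha had another probe at -0.32 and 0.22. Pgk1 had -0.07 and 0.71, Pdk1, which restrains pyruvate oxidation, had -0.80 and -0.10, and the collagen prolyl hydroxylase subunits P4ha1 and P4ha2 had -0.64 and -0.73 in stromal cells against -0.16 and -0.06 in T cells.

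The upstream stretches of Ankrd37 and Chac1 are shown because they were lower in stromal cells and hold the core motifs named for these 2 pathways. Capitals mark matches on either strand to ACGTG, the core of the hypoxia response element, in Ankrd37 (chr8:45999851-46000100, minus strand) and to TGATGNAA, the core of the amino acid response element that Atf4 is known to bind, in Chac1 (chr2:119350992-119351241, plus strand). Build, length and strand are as above.
Ankrd37: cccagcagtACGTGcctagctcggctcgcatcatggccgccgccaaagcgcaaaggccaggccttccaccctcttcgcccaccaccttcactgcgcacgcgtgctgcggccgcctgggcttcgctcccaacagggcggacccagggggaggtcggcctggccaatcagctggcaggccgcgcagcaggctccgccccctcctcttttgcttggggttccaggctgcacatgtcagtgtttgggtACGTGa
Chac1: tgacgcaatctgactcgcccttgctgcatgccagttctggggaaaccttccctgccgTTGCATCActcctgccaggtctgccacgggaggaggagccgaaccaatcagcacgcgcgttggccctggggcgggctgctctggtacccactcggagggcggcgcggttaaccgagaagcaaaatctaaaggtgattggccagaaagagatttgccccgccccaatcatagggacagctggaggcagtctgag

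ACGTG was found in 25 of 34 HIF and glycolysis genes with a window (73.5%), against 2824 of 9713 measured genes (29.1%). TGATGNAA was found in 7 of 26 Atf4 stress genes (26.9%), against 264 of 9713 (2.72%). Among all 9 genes with a window at least 2-fold lower in stromal cells, each motif was found in 2.

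Plac8 was the one gene past 2-fold in opposite directions. It encodes a small cysteine-rich protein found in many immune cells, and its probe lies at chr5:100982870-100982929 on mm9. It went from 9.57 to 10.91 in stromal cells, a ratio of 1.35, and from 15.53 to 14.10 in T cells at 72 h, a ratio of -1.42. Its untreated level was 62.2-fold higher in T cells, and its T cell ratio at 24 h was 0.06. Centring the arrays without loess was the 1 alternative of those run that took it below 2-fold on an array.

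Another 4 genes were past 2-fold on 1 array and moved at least 0.5 the other way on the other. Dhx58, a helicase of the viral RNA sensing pathway, went from 9.96 to 11.45 in stromal cells and from 9.84 to 8.92 in T cells, ratios of 1.49 and -0.92. Its T cell ratio was -0.83 at 24 h, the lowest of any measured gene on that array among those compared here. Tgtp1, an interferon-induced GTPase, had 1.12 and -0.87, and Renbp, an epimerase of amino sugars, had 1.26 and -0.50. Cbfa2t3, a corepressor of blood progenitors, had 0.59 and -1.10, the latter -0.97 when centred without loess. Of the 9 genes at least 1.5-fold higher in stromal cells and 1.5-fold lower in T cells, 8 had an untreated level at least 2-fold higher in T cells. Among all 13943 genes that share was 10.4%. The untreated channel is also part of the ratios that picked these genes, so the count is not independent of them. The 9 included the GTPase Iigp1 at 0.83 and -0.73 and the chemokine Ccl5 at 0.86 and -0.62.

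At 1.5-fold the opposite pattern, lower in stromal cells and higher in T cells, held 7 genes, of which 4 are given here, chosen after their values were seen. Periostin (Postn), a matrix protein, went from 13.34 to 12.60 in stromal cells and from 11.63 to 12.34 in T cells at 72 h, ratios of -0.74 and 0.71, and had 1.14 in T cells at 24 h. Fgf7, a growth factor for epithelium, had -0.87 and 0.61, Cav1, of membrane caveolae, had -0.74 and 0.62, and Snai2, a mesenchymal transcription factor, had -0.62 and 0.77. None of the 7 had an untreated level at least 2-fold higher in T cells than in stromal cells. With a share of 10.4% over all genes, so few genes cannot show a difference from it.

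Past 2-fold on the stromal array only, 33 genes were higher (0.237%) and 12 lower (0.0861%). The balance of directions depended on the processing, with 67 higher and 77 lower by the deposited Agilent log ratio, 207 and 370 at 1.5-fold, and 31 and 6 by the median over probes. Outside the interferon-stimulated list, the higher genes included Elmo3, an adaptor of cell engulfment and movement, at 1.55 against 0.47 in T cells. Alox5ap, needed for leukotriene synthesis, had 1.30 against -0.36. That list does not hold every interferon-responsive gene, Tgtp1 being outside it, and genes outside it were not sorted by interferon response. The lower genes included Efna5, an ephrin, which went from 10.92 to 9.78 in stromal cells and from 9.22 to 8.92 in T cells, ratios of -1.14 and -0.30. The transcription factor Maf had -1.05 against -0.34, but its 4 probes spread from -1.05 to 0.04 on the stromal array. The cholesterol and lipid synthesis list had 0 of 31 members past 2-fold on either array. In stromal cells 30 of its members lay above 0, as did 7423 of all 13943 genes. The list had a median of 0.40 in stromal cells against 0.13 in T cells. Tm7sf2 had 0.99 and 0.09, and Mvd 0.95 and 0.02.

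Past 2-fold on the T cell 72 h array only, 13 genes were higher (0.0932%) and 16 lower (0.115%). With a running median over brightness subtracted these were 8 and 19, without genes at least 2-fold higher in untreated stromal cells 8 and 16, and by the Agilent log ratio 23 and 28. The highest was Myo6, an unconventional myosin, which went from 12.11 to 14.13 in T cells and from 11.36 to 11.14 in stromal cells, ratios of 2.03 and -0.22. Its 3 probes ranged from -0.16 to 2.03 in T cells and from -0.22 to -0.17 in stromal cells, so not every probe showed the T cell rise. The phosphatase Ptpn13 went from 9.07 to 10.60 in T cells and from 9.02 to 9.26 in stromal cells. Acsbg1, which activates fatty acids, had 1.31 against 0.00. Its stromal levels were low, 6.77 untreated and 6.77 treated, where the offset shrinks a ratio toward 0.

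Fbn1 (fibrillin) went from 12.44 to 13.53 in T cells at 72 h and from 13.79 to 14.05 in stromal cells. Vim (vimentin) went from 15.54 to 16.59 and from 16.05 to 16.34, Tnc (tenascin) from 8.52 to 9.52 and from 9.71 to 9.64, and Ccn2, induced by TGF-beta, from 13.89 to 14.92 and from 15.20 to 15.65. By the Agilent log ratio Vim and Ccn2 fell short of 2-fold in T cells, at 0.82 and 0.96, while Fbn1 was at 0.83 by the median over its probes and Tnc at 0.99 with a running median over brightness subtracted. In each case the untreated T cell level was below the untreated stromal level. Cnn1 (calponin) and Col11a1 had ratios of 1.26 and 1.14 in T cells and 0.56 and 0.94 in stromal cells. The 36 measured stromal matrix genes had a median of 0.36 in T cells at 72 h, with 5 at least 2-fold higher, and of -0.01 in stromal cells, with 1. The 22 collagen chains had 0.48 and 0.13 with 2 higher on each array, and the 20 TGF-beta and contractile genes 0.52 and 0.12 with 2 and 0. At 24 h in T cells these 3 lists had medians of 0.61, 0.63 and 0.45. As given above, stromal markers as a whole also moved in T cells, with a median of 0.52 over 11, and their part in these values was not tested.

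**Figure D4:**
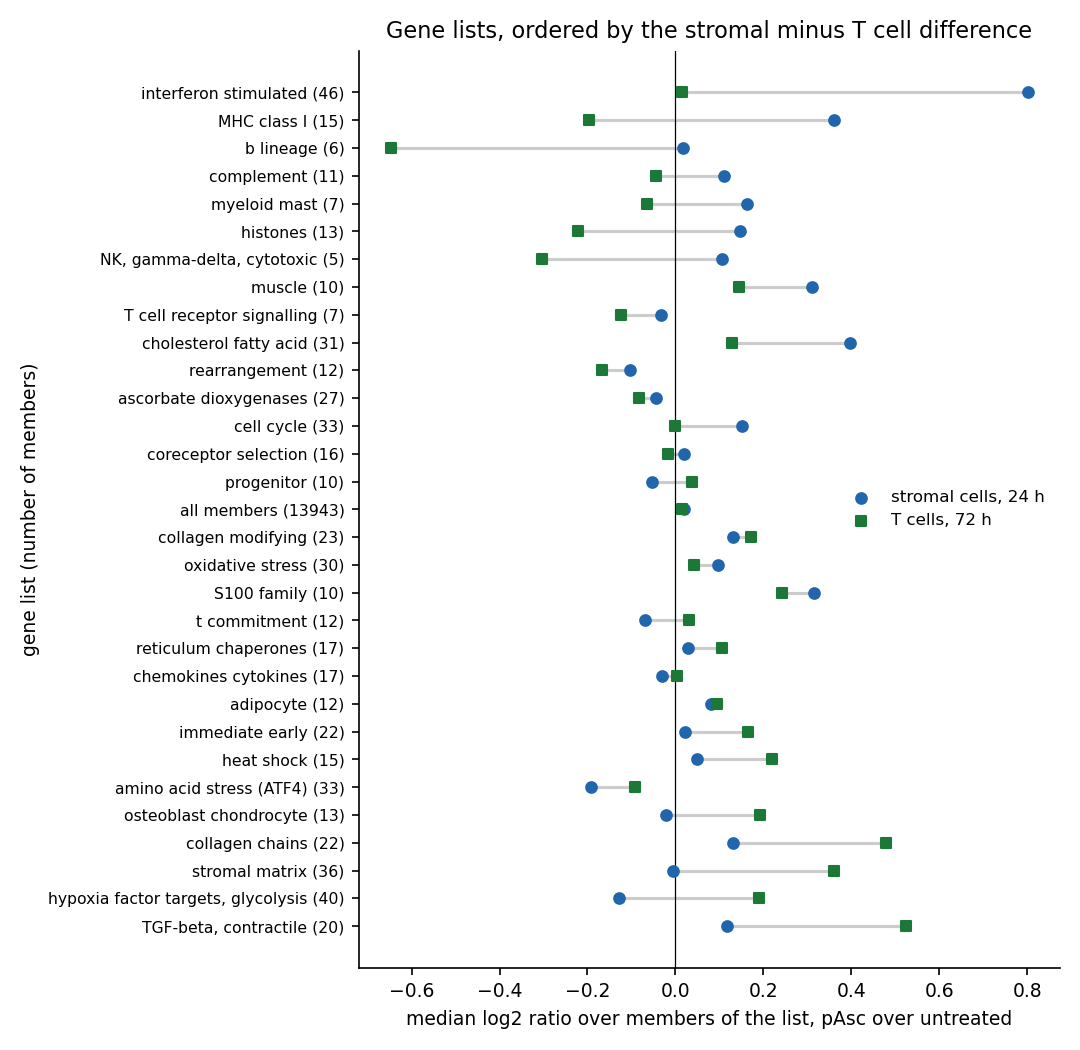
Median log2 ratio of pAsc over untreated for 30 gene lists and for all 13943 genes, in stromal cells at 24 h (circles) and T cells at 72 h (squares), ordered by the median difference between the arrays; the number of measured genes is in brackets. Interferon-stimulated and class I genes lie at the top with higher stromal medians, and TGF-beta and contractile, HIF and glycolysis, matrix and collagen genes lie at the bottom with higher T cell medians.

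Among the genes lower in T cells at 72 h only, Ctsg, the neutrophil protease cathepsin G, went from 8.50 to 6.43 in T cells and from 6.78 to 6.95 in stromal cells, ratios of -2.07 and 0.16, the former -3.34 by the Agilent log ratio. C3, the central complement component, went from 14.89 to 12.94 in T cells and from 8.64 to 8.36 in stromal cells, with its probe at chr17:57343416-57343475 on mm9. Cd34, of blood progenitors, went from 10.93 to 9.14 and from 7.55 to 7.23, though it had 0.77 in T cells at 24 h. In all 3 the untreated T cell sample was the highest of the 4 values. Ctsg and Cd34 were dim in stromal cells, where the offset shrinks a ratio toward 0. By the Agilent log ratio their stromal values were 0.58 and -0.69, outside the 0.5 that defines "only". Vpreb1, of the pre-B cell receptor, had -1.57 in T cells against 0.08, Blnk, a B cell adaptor, -1.02 against 0.49, and Nfe2, a factor of erythroid cells and platelets, -1.54 against -0.03. The 10 of 24 progenitor list genes measured on both arrays, Cd34 and Nfe2 among them, had a T cell median of 0.04. Of these, 5 lay above 0, with Gata2 highest at 0.65, and 5 below. Markers of some other cell types had medians below 0 at 72 h too, though each set held a member above 0. The 5 measured of 7 B lineage markers had a median of -1.02, from -1.57 to 0.185. Their summed level was 5428 untreated and 3493 treated, and Cd79a and Pax5 were above background in neither channel. The 5 measured of 6 myeloid and mast cell markers had -1.27, from -2.13 to 0.33, with 6811 and 1876, and Itgam was above background in neither. The 5 NK markers had -0.74, from -1.61 (Gzma) to 0.13, with 43048 and 15541. A summed level weighs the brightest genes most, and Gzma had a mean log2 brightness of 14.4. Of 5 erythroid markers only 2 were measured, with a median of 0.09, and the summed level was 527 and 525, with Klf1 above background in neither channel. The part of such cells in these results was not tested. Akr1c12, Ly6d, Tspan13 and Adgrg1 were lower too, at -1.03, -1.01, -1.32 and -1.30, against -0.13, 0.48, 0.29 and -0.15. Centring without loess took Blnk, Akr1c12, Ly6d and Tspan13 to between -0.98 and -0.70, short of 2-fold, and Ly6d had -0.99 by the Agilent log ratio.

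Genes that were past 2-fold on 1 array but not measured on the other are outside the comparison. Of 62 genes called lower at 72 h in T cells, 40 were left out, 35 of them above background in neither stromal channel. They included the progenitor factors Lyl1 (-2.55) and Myb (-1.29), the mast cell protease Cpa3 (-2.13) and Gzma (-1.61), of cytotoxic granules. In the progenitor list, 5 of the 10 genes measured on both arrays lay above 0 at 72 h, as given above. That count leaves out any of the 24 listed genes not measured in stromal cells. Of the 10, 4 had an untreated level at least 2-fold higher in stromal cells and 4 in T cells. The split thus does not describe progenitor genes that stromal cells lack. Of 37 higher genes, 9 were left out, among them the coreceptor genes Cd8a (1.31) and Cd8b1 (1.62) and the kinase Zap70. The 12 T lineage markers, which include these coreceptor genes, had a median of -0.13 at 72 h, from -0.60 to 1.62. Their summed level was 151990 untreated and 129166 treated. On the stromal array 2 of 62 higher genes were left out, Lars2 and Myog, and 0 of 17 lower genes.

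The untreated levels of the called genes differed between the 2 cell types. Of the 22 genes lower in T cells at 72 h, 18 (81.8%) had an untreated level at least 2-fold higher in T cells than in stromal cells. Of the 28 higher genes, 15 (53.6%) had an untreated level at least 2-fold higher in stromal cells and 1 in T cells. Among all 13943 genes the shares were 10.4% and 15.6%. The untreated channel is also the denominator of the ratio that called these genes, so a high untreated value both lowers the ratio and places a gene in the T cell-high class. With the untreated level of the T cell 24 h array, which is no part of that ratio, 19 of the 22 lower genes (86.4%) were at least 2-fold higher in T cells, against 15.9% of 13595 genes. By the same measure 13 of 26 higher genes were at least 2-fold higher in stromal cells, against 24.8%. The stromal calls were more mixed, with 17 of the 60 higher genes at least 2-fold higher in untreated stromal cells and 12 in T cells.

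**Figure D5:**
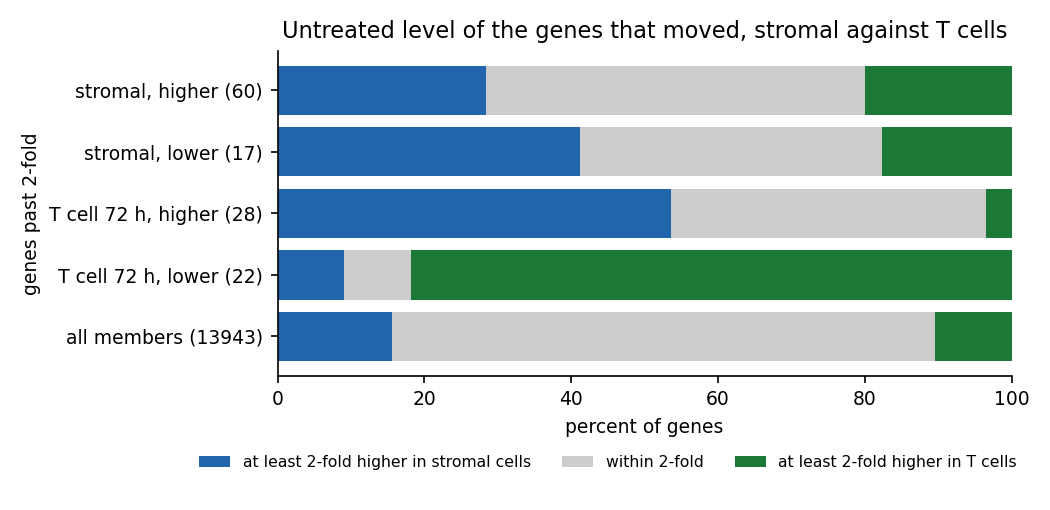
Percent of genes whose untreated level was at least 2-fold higher in stromal cells, within 2-fold, or at least 2-fold higher in T cells at 72 h, for genes past 2-fold on each array and direction and for all genes (number in brackets). Genes lower in T cells at 72 h were mostly T cell-high (81.8%), and those higher in T cells were mostly stromal-high (53.6%); the untreated channel is also part of each ratio.

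Across all 13943 genes the log2 ratios of the 2 arrays had a Pearson correlation of 0.146 and a Spearman correlation of 0.098. These describe genes, not replicates, and the points share probes, dyes and the brightness shift given above. For the 2171 genes at least 2-fold higher in untreated stromal cells the Pearson value was 0.373, for the 10322 with similar levels 0.104, and for the 1450 at least 2-fold higher in T cells -0.122. Both untreated channels that set this split are denominators of the ratios correlated, so the split itself can move these values. The 60 genes higher in stromal cells had a median of 0.31 at 72 h in T cells, with 41 above 0, and of 0.10 at 24 h. The 28 genes higher in T cells at 72 h had a stromal median of 0.54, with 24 above 0, whereas the 22 lower genes had a stromal median of -0.01, with 11 on each side of 0.

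The difference between the 2 ratios was at least 1 for 154 genes (1.1%), 88 of them higher on the stromal array (0.631%) and 66 lower (0.473%). The larger side changed with the processing, with 216 higher and 272 lower by the Agilent log ratio, 212 and 228 when background was simply subtracted, 148 and 151 when no offset was added, 75 and 189 when centred without loess, and 464 and 904 at 1.5-fold. A dye effect of a probe that is equal on both arrays cancels in this difference. Plac8, Dhx58, Oasl2, Ctsg and Usp18 led the first direction, at 2.77, 2.41, 2.25, 2.23 and 2.02. Myo6, Slc26a7 and Cemip led the second, at -2.25, -1.65 and -1.54. Cemip, which binds hyaluronan, had 3 probes from -0.01 to 1.35 in T cells.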

How the data were processed

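RNA of 3 2-colour Agilent mouse arrays was analysed, of which 2 were set against each other and the third is quoted beside them. Each deposited spot intensity is a scanner mean signal with its median local background, from Feature Extraction 10.5.1.1 according to the headers. The log10 ratio of Cy5 over Cy3 deposited beside them follows linear and LOWESS dye normalization, per the file headers, and was used as an alternative after conversion to log2. Here, limma 3.58.1 in R 4.3.3 applied normexp with an offset of 50 and loess with a span of 0.3, control and outlier-flagged spots having weight 0. The offset shrinks the ratios of dim genes. Spots of a probe were averaged, and a gene was its brightest probe. A probe was measured where a share of at least 0.5 of its spots was well above background. Levels were scaled across arrays by Aquantile. Of 41174 probes, 25097 were named by accession, 6333 by symbol and 1640 by synonym through RefSeq (GRCm38.p6), and 8104 kept the name in the file. Probe positions are on mm9, per the file headers, and no gene annotation of mm9 was used. The steps were tested on simulated data whose changes were larger than 2-fold. Such a test cannot show how far calls near 2-fold hold, nor find dye effects of single probes.

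Genes named are all past 2-fold alike or oppositely, those furthest past 2-fold on 1 array only, those with the largest differences, up to 4 members of a list, and a set list; clone names were counted and not named. Only some of these are printed, and names of a list's other members, of 1.5-fold genes and of genes not measured on both arrays were chosen after their values were seen. The members, the 30 lists and the rules were chosen with earlier results of these data known. Python 3.11.15, numpy 2.4.6, pandas 2.3.3 and matplotlib 3.10.9 were used for counts and plots. With 1 array per comparison, the number of arrays limits the precision. The alternatives were other dye and background corrections, other probe choices, a looser filter, other folds and leaving out stromal-high genes. S100a4 and Ldha had no value at 24 h, where their spots were outlier-flagged. A few genes were left out of the text.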

Additional observations from a re-analysis of the deposited data

Results flagged for a closer look

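For 5 genes the log2 ratios lay on opposite sides of 0 on the 2 arrays, at least 1 of them past 2-fold and the other past 0.5. The difference, stromal minus T cell 72 h, was 2.77 for Plac8, 2.41 for Dhx58, 2.00 for Tgtp1, 1.76 for Renbp and 1.68 for Cbfa2t3. With 1 array on each side the difference was not tested. In T cells at 24 h the ratios were 0.06, -0.83, -0.25, -0.31 and -0.25 in that order, so Plac8 was above 0 and the other 4 below.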

How the results depend on the processing

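As reported, 7 genes were higher on both arrays, 1 lower on both and 1 opposite, 45 moved on the stromal array only, 29 on the T cell 72 h array only, 154 differed by at least 1, and r was 0.146. In that order the counts were 18, 7, 2, 144, 51 and 488 with the Agilent log ratio, which kept 4 of the 7, and 16, 4, 3, 145, 50 and 440 with plain background subtraction. An offset of 0 gave 12, 4, 2, 75, 41 and 299. Centring without loess gave 54, 3, 0, 99, 27 and 264, with r 0.539. Calling at 1.5-fold gave 61, 13, 16, 577, 325 and 1368. Taking the median over probes left 0 lower on both. Without genes at least 2-fold higher in untreated stromal cells, 4 were higher on both, 0 lower on both, and r was 0.0741. The other alternatives run moved these counts and r by less. A running median over brightness, single probes and the T cell 24 h untreated level were added after seeing the data.

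List medians (stromal, T cell 72 h) moved mostly when arrays were centred without loess. Class I was 0.84 and 0.18, the latter turned from -0.20. Smaller medians that also changed sign were, in stromal cells, myeloid and mast from 0.16 to -0.48, NK from 0.11 to -0.24, HIF from -0.13 to 0.03, B lineage from 0.02 to -0.43 and matrix from -0.0061 to 0.28, and in T cells muscle from 0.14 to -0.28, progenitor from 0.04 to -0.24, coreceptor from -0.02 to 0.29 and cell cycle from -0.0016 to 0.27. Those of dioxygenases and chemokines (T cell) and of coreceptor and commitment genes (stromal) did so close to 0. Collagen chains were 0.48 and 0.68, matrix 0.64 in T cells, chaperones 0.29 and 0.33, adipocyte 0.32 and 0.42, oxidative stress 0.46 and 0.32, heat shock 0.33 and 0.44, B lineage -0.88 and myeloid and mast -0.59 in T cells. In stromal cells alone, Atf4 stress was -0.0023, collagen-modifying 0.39, TGF-beta 0.45, cholesterol 0.66, and receptor signalling -0.29. In T cells alone, HIF was 0.42, S100 0.49, commitment 0.29 and histones -0.0034. With the Agilent ratio, muscle was 0.35, B lineage -0.92 and myeloid and mast -0.24 in T cells, and 0.50 in stromal cells for the last. In all, 84 list medians moved less, among them the stromal HIF median and those named as changing sign close to 0. The stromal chaperone median also changed sign near 0 by the Agilent ratio, from 0.0281 to -0.0247. The cause was not tested. No paired analysis was possible because each comparison has 1 array. Dim genes, near background, limit what could be compared.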

Other observations

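Some genes lay lower by at least 1.5-fold on both arrays without passing 2-fold on either. Cox6a2, a subunit of the respiratory chain found in muscle, had a stromal ratio of -0.94 and a T cell 72 h ratio of -0.99, Malat1, a nuclear RNA, had -0.98 and -0.63, and the transcription factors Sox4 and Sox9 had -0.72 and -0.65, and -0.91 and -0.68. Sox9 had 0.96 in T cells at 24 h. Among 61 genes at least 1.5-fold higher on both, 29 had an untreated level at least 2-fold higher in stromal cells and 0 in T cells. Over all 13943 genes the shares were 15.6% and 10.4%, and the untreated channel is part of each ratio. Of the 61, 7 had a mean log2 brightness above 16 on both arrays, as did 81 of all genes. Ribosomal proteins are encoded by 3 of the 61, a class not counted over all genes. The 61 included Sfrp4, a Wnt antagonist, at 0.94 and 0.91, the filamin gene Flna at 0.65 and 0.87, and the sulfatase Sulf1 at 0.70 and 0.87. The prolactin-family genes Prl2c5 and Prl2c3 had 0.81 and 0.66 in stromal cells against 1.97 and 1.91 in T cells, but they are near-identical copies that these probes may not tell apart.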
